A study of Caenorhabditis elegans with 4 samples.

Results

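Narrow LIN-61 peaks with a matching peak in each ChIP library are a small, selected class of the called peaks. They were chosen by their measured width and overlap, from the authors' peak list for the whole series as peaks of 400 bp or less for which each of the 2 replicate lists held a peak with a reciprocal overlap of at least 50%. Reciprocal overlap means that the shared bases make up that share of both peaks. The whole-series list held 14662 peaks, of which 8429 were narrow. Of the narrow peaks, 940 met the rule (11.2%), and the other 7489 are called unsupported here. By the same overlap rule 18.0% of the peaks of any width and 27.2% of the peaks wider than 400 bp were supported.

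The peaks come from chromatin immunoprecipitation and sequencing (ChIP-seq) with a polyclonal LIN-61 antibody raised in rabbit (HM4077). The animals were L3 larvae of Caenorhabditis elegans, of the wild-type strain N2. They were a mixed population of males and hermaphrodites, kept at 20 degrees Celsius and grown in liquid culture. EGS and formaldehyde served as crosslinkers, and the chromatin was sonicated. The group analysed holds 2 ChIP libraries. The 2 input DNA libraries were not analysed here, so no value below is set against input, and no lin-61 mutant was analysed here as a check of the antibody. The labels do not say whether the replicates came from separate cultures, so differences between them may be technical. The read depth behind the lists is unknown.

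LIN-61 is a chromatin protein built of MBT repeats, a fold that reads methylated lysines, and it binds histone H3 methylated at lysine 9. Its gene is one of the synMuv B genes, which act in chromatin-based repression, in vulval development among other settings. In C. elegans, methylation of H3 lysine 9 is concentrated on the chromosome arms, which are rich in repeats, and is sparser in the gene-dense centres. Wide regions of LIN-61 signal and short separate sites can both appear in one peak list. A narrow peak found at the same place in separate libraries is a short site called in both.

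Most narrow peaks failed the rule because 1 replicate lacked a matching peak. Reciprocal support came from replicate 2 and not replicate 1 for 3891 narrow peaks (46.2%), and from replicate 1 and not replicate 2 for 1009 (11.97%). A further 565 (6.70%) overlapped a replicate peak only below the limit, and 2024 (24.0%) overlapped no peak of either replicate. Only 241 of the unsupported narrow peaks overlapped peaks of both replicates by at least 1 bp. Of the 4831 narrow peaks with reciprocal support in replicate 2, whose list held 13486 peaks, 19.5% also had it in replicate 1. Of the 1949 with support in replicate 1, whose list held 9958 peaks, 48.2% also had it in replicate 2.

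Width is part of the rule that chose these peaks, and score is not but went with support, so both are given as a description. The meaning of the authors' score is not stated, so that it serves here to order the peaks of 1 list. The median whole-series score was 13.62 for the supported peaks and 4.82 for the unsupported narrow peaks, and the median width was 288 bp against 222 bp. In the highest-scoring 25% of the narrow peaks (scores of 8.18 to 118.84) 792 of 2107 peaks were supported, or 37.6% (95% interval 35.5 to 39.7). In the next class (5.18 to 8.17, 2080 peaks) the share was 5.82% (4.85 to 6.91). It was 1.18% (0.741 to 1.78) for the 1863 peaks with scores from 3.81 to 5.17 and 0.210% (0.0683 to 0.490) for the 2379 with lower scores. Support also differed by width, with 1.34% (0.958 to 1.82) of the peaks of 200 bp or less supported and 21.3% (18.6 to 24.2) of those of 351 to 400 bp. Above the width limit the share was 26.8% (25.4 to 28.1) between 401 and 1000 bp and 23.8% (20.6 to 27.1) among the 686 broad peaks of 2000 bp or more. These intervals are exact (Clopper-Pearson) and reflect counting error alone. Neighbouring peaks are not independent, which the intervals ignore.

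**Figure D1:**
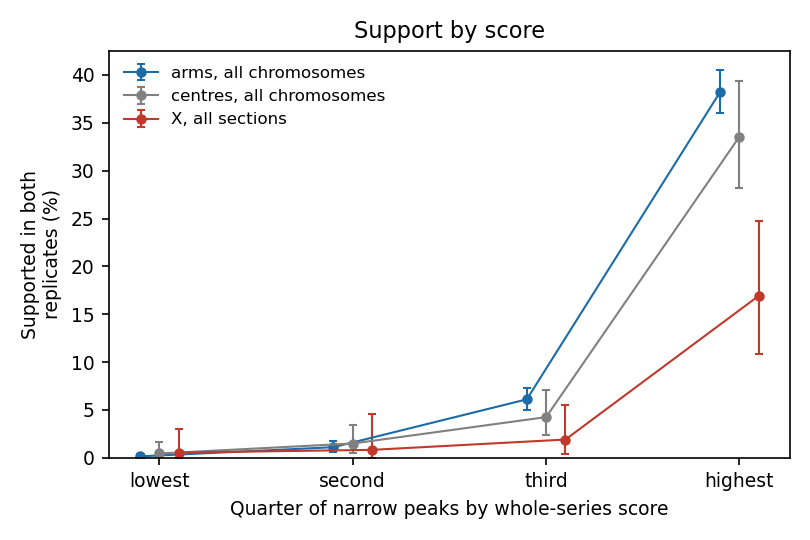
Percent of narrow LIN-61 peaks supported in both replicates (y axis) in 4 classes of the narrow peaks by whole-series score (x axis), divided at the quartiles, with tied scores kept together, for arms, for centres and for the X chromosome. Bars are exact 95% binomial intervals; in the highest class the arms stand at 38.2%, the centres at 33.6% and X at 16.9%.

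In the whole-series list, ranked among peaks of all widths, the supported peaks had a median percentile of 69.7, and 345 (36.7%) lay in the top 25%. In the replicate lists, ranked in the same way, their matches were of middling rank. Their median score was 6.90 in replicate 1, at percentile 51.3 of that list, and 7.91 in replicate 2, at percentile 52.9. In replicate 1 the scores ran from 1.77 to 80.2, and in replicate 2 from 1.75 to 107.3. Only 83 supported peaks (8.83%) lay in the top 25% of both replicate lists, and 665 (70.7%) lay in the top 25% of neither. The ranking was shared in part: across the 940 peaks Spearman's rho was 0.421 between the replicate scores. It was 0.675 between the whole-series and replicate 1 scores and 0.898 between the whole-series and replicate 2 scores. These rho values are across peaks, which share libraries and are not replicates, so they carry no p.

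**Figure D2:**
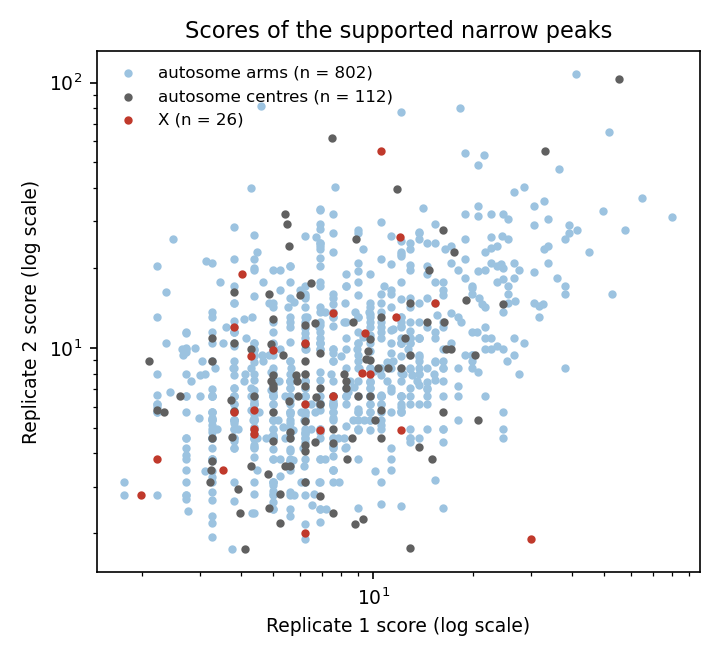
Score in replicate 1 (x axis, log scale) against score in replicate 2 (y axis, log scale) for the 940 supported narrow peaks, with 1 point for each peak. Points are coloured by autosome arms (802), autosome centres (112) and X (26); the cloud slopes upward with wide scatter (Spearman's rho 0.421).

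Sites were placed closely in both libraries. The midpoints of the matched replicate peaks lay a median of 30.8 bp apart (quartiles 13.5 and 57.5 bp), and 654 pairs (69.6%) were within 50 bp. The largest offset was 194.5 bp. The overlap rule itself limits this distance. Matched peaks were shorter in the replicates, with median widths of 224 bp and 231 bp, and 729 supported peaks (77.6%) were wider in the whole-series list than in both. Few matches were themselves over 400 bp, since 910 of the replicate 1 and 930 of the replicate 2 peaks were at or below that width. No replicate peak was matched to more than 1 supported peak.

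The edges of the rule were not sharp in score. The 26 supported peaks of 391 to 400 bp had a median score of 18.6, and the 42 peaks of 401 to 410 bp with the same overlap in both replicates, just outside, had 16.8. The 87 supported peaks whose smaller overlap was 50% to under 55% had a median score of 10.7, and the 80 narrow peaks at 45% to under 50%, just outside, had 8.81.

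The supported peaks lay mostly on chromosome arms, as the narrow peaks as a whole did. Every chromosome was cut into 3 equal sections, with the outer sections called arms. The arms held 822 of the 940 supported peaks (87.4%), against 83.0% of the unsupported narrow peaks. Arms carried 12.3 supported peaks per Mb, and centres 3.53 per Mb. The share of narrow peaks that were supported was 11.7% (10.9 to 12.5) on the arms and 8.48% (7.07 to 10.1) in the centres.

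Chromosome by chromosome, the arm share was above the centre share on each of the 5 autosomes and below it on X. On II it was 13.0% on the arms and 5.61% in the centre, the widest difference. On III the values were 14.4% and 10.5%, on V 11.9% and 8.40%, and on IV 10.6% and 7.93%. On I they were nearly level, at 11.3% and 10.5%, and on X they were 4.25% and 5.41%. The mean difference was 2.87 ± 2.92 percentage points (SD over 6 chromosomes). Sign-flip permutation over the 6 chromosomes, exact and two-sided, gave p = 0.094, or 0.141 after Benjamini-Hochberg adjustment over 3 such tests, so it did not pass 0.05. The smallest p that 6 chromosomes allow is 0.03125. With arms taken as the outer 25% at each end the difference was 3.30 points with p = 0.03125 by the exact permutation test, positive on 6 of 6 chromosomes. With support required in replicate 2 alone, whether or not replicate 1 gave it too (4831 peaks), it was 6.13 points. That was again positive on 6 of 6, with an exact permutation p of 0.03125. With support required in replicate 1 alone, in the same sense (1949 peaks), it was 3.10 points, positive on 4 of 6, with an exact permutation p of 0.25. Among the highest-scoring 25% of the narrow peaks it was 4.45 points but positive on only 3 of 6, with an exact permutation p of 0.375.

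**Figure D3:**
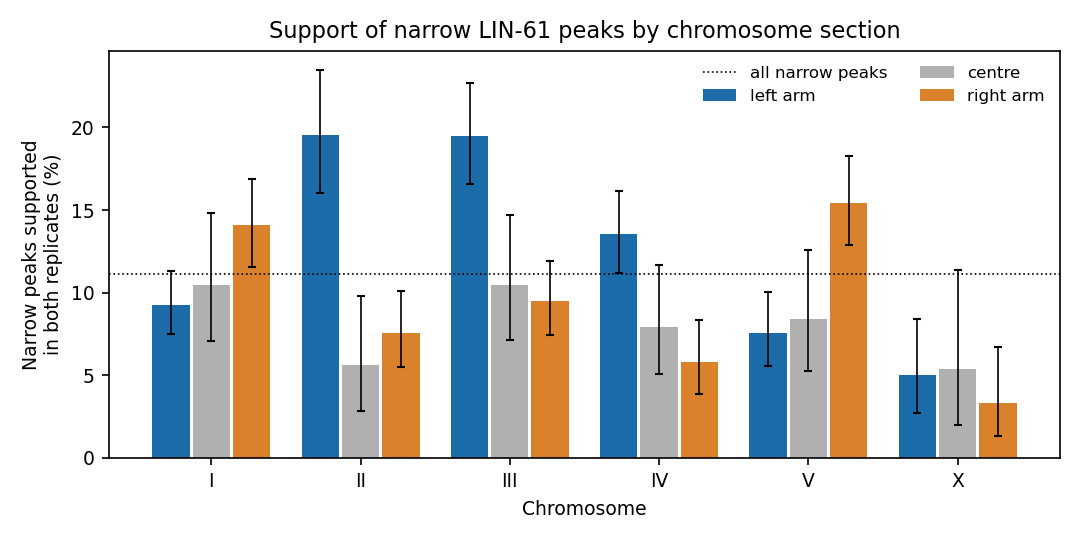
Percent of narrow LIN-61 peaks supported in both replicates (y axis) in the left arm, centre and right arm of each chromosome (x axis). Bars start at 0, lines are exact 95% binomial intervals, and the dotted line is the share over all narrow peaks (11.2%); the left arms of II and III are highest, at 19.6% and 19.5%, and the 3 sections of X are at or below 5.41%.

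On each of the 6 chromosomes the arms differed from each other by more than arms together from the centre. The left arms of II and III had the highest shares, at 19.6% (16.1 to 23.5) and 19.5% (16.6 to 22.7), against 7.55% (5.50 to 10.1) and 9.52% (7.45 to 11.9) on their right arms. On IV the left arm had 13.5% (11.2 to 16.2) and the right arm 5.82% (3.87 to 8.35). On V the order was turned, with 15.4% (12.9 to 18.3) on the right arm and 7.59% (5.57 to 10.1) on the left. On I the right arm was also the higher, at 14.1% (11.6 to 16.9) against 9.26% (7.50 to 11.3). On X the left arm had 5.02% (2.70 to 8.43) and the right arm 3.30% (1.34 to 6.68), within each other's intervals.

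The higher arm was in each case the one that carries the meiotic pairing centre, the region near one chromosome end where homologues pair and begin synapsis. The pairing centre is near the left end of chromosomes II, III, IV and X, and near the right end of V and of I. This sorting was chosen after the values had been seen, so no test is given. The pairing-centre arm exceeded the opposite arm on 6 of 6 chromosomes, by a mean of 7.35 percentage points and by between 1.72 points (X) and 12.0 points (II). The highest-scoring 25% of the narrow peaks hold 792 of the 940 supported peaks, so they give no independent check of this order. Among them the difference was 21.4 points and positive on 6 of 6, with 58.0% against 25.9% on II and 55.1% against 31.0% on III. All shares were higher in that class, with means of 45.3% against 23.9%, where all narrow peaks had 14.5% against 7.17%. Scores were not matched between the arms there. The median score was higher on the pairing-centre arm on every chromosome but I, with 16.3 against 11.6 on II and 12.0 against 12.1 on I.

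The replicates differed in this order. In replicate 1, 33.2% of the narrow peaks on the left arm of III had reciprocal support and 21.9% of those on the right arm, while in replicate 2 the values were 55.1% and 58.4%. On V replicate 1 supported 32.0% on the right arm and 14.7% on the left, and replicate 2 supported 56.1% and 62.4%. On IV replicate 1 gave 28.5% on the left arm and 16.2% on the right, and replicate 2 gave 54.9% and 58.4%. Averaged over the 6 chromosomes, the pairing-centre arm was 10.4 points above the opposite arm by replicate 1 support, positive on 5 of 6. By replicate 2 support it was 3.53 points below the opposite arm, negative on 5 of 6. Chromosome II was the exception in replicate 2 and X in replicate 1. The part of depth in this difference was not tested, since no list states one.

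**Figure D4:**
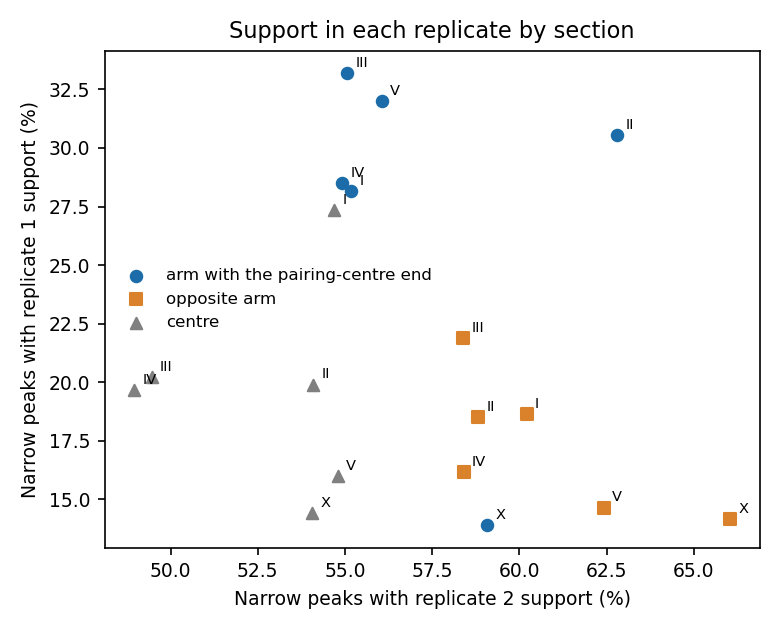
Percent of narrow peaks with reciprocal support in replicate 2 (x axis) against the percent with support in replicate 1 (y axis), with 1 point for each of the 18 chromosome sections, labelled by chromosome. Circles are arms with the pairing-centre end, squares the opposite arms and triangles the centres; neither axis starts at 0, and the circles of the 5 autosomes stand highest in replicate 1, from 28.2% to 33.2%.

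The X chromosome had few supported narrow peaks. It held 26 of the 940, or 1.47 per Mb, against 11.1 per Mb on the autosomes. Of its 582 narrow peaks 4.47% (2.94 to 6.48) were supported, against 11.6% (10.9 to 12.4) of the 7847 on autosomes, where single chromosomes ran from 10.1% on IV to 13.7% on III. X is 1 of 6 chromosomes, so the comparison has no test that could pass 0.05. The lower share on X was present in replicate 1, where 14.1% of the X narrow peaks and 23.8% of the autosomal ones had support. In replicate 2 X was not lower, at 60.7% against 57.1%. In the highest-scoring 25% of the narrow peaks 16.9% (10.8 to 24.7) were supported on X and 38.9% (36.7 to 41.1) on the autosomes. The X peaks that did pass scored much like the others, with a median of 14.4 against 13.6. Males have a single X. How many of the larvae were male was not measured here, and any bearing of this on the X share was not tested.

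Spacing was measured as the bases between the facing edges of a peak and the nearest other peak in the whole-series list. Supported peaks had a median gap of 592.5 bp (quartiles 194.8 and 1781 bp, range 51 to 64150 bp). Unsupported narrow peaks had a median gap of 433 bp (quartiles 150 and 1625 bp, range 51 to 136001 bp). The distributions overlapped almost wholly. The median was larger for supported peaks on 6 of 6 chromosomes, from 436 against 399 bp on I to 2001 against 915.5 bp on X. The mean difference was 305.3 ± 390 bp (SD over 6 chromosomes), and 149 ± 88 bp over the 5 autosomes alone. By exact sign-flip permutation p was 0.03125, or 0.094 once adjusted over the 3 tests, which does not pass 0.05. Gap also varied with the overlap that the rule uses. The 565 narrow peaks that overlapped only below the limit had a median gap of 149 bp, against 372 to 567 bp in the other unsupported kinds. At the 50% limit the median was 583 bp just inside and 290 bp just outside. Where a 1 bp overlap sufficed, the mean difference was 138.7 bp. Against only the 7248 unsupported peaks with no 1 bp overlap in at least 1 replicate, the mean difference was 297.1 bp. That was positive on 6 of 6 chromosomes, with an exact permutation p of 0.03125, unadjusted. This set leaves out only 241 of the 7489 unsupported peaks. How far the overlap rule itself sets the gap difference was not tested. With support required in replicate 2 alone the difference was 367.8 bp, and with support required in replicate 1 alone it was -5 bp, so the larger gap was not seen with replicate 1 by itself. In the centres alone the difference was 1987.5 bp on average (means of the chromosome medians 2736 and 748.8 bp), positive on 6 of 6 chromosomes with an exact permutation p of 0.03125, unadjusted. The centres held 118 supported peaks, from 6 on X to 29 on III. Those on X include gaps of 58544 and 64150 bp, and no mean over the autosome centres alone was taken. On the arms the difference was 281.7 bp, positive on 5 of 6, with an exact permutation p of 0.0625.

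Within classes of score the spacing difference did not keep one direction. Unsupported narrow peaks were more often very close to a neighbour: 33.2% of them and 25.6% of the supported peaks had another peak within 200 bp. Narrow peaks that close to another had a low median score, 4.82, against 5.92 for those with a gap of 1000 to 5000 bp. Among the highest-scoring 25%, supported peaks were the closer ones, with a median gap of 635 bp against 789 bp for the unsupported. There the difference by chromosome was -242.1 bp on average and negative on 6 of 6 chromosomes, from -10.5 bp on III to -662 bp on X. The exact permutation p was 0.03125, unadjusted, in a comparison added after seeing the data. On the arms the medians in that class were 539 bp for supported and 678 bp for unsupported peaks, and in the centres they went the other way, at 3441 bp against 2747.5 bp. Over all sections the supported peaks also had the smaller median gap for scores of 5.18 to 8.17 (376 against 457 bp) and among the 5 supported peaks scoring 3.80 or less (135 against 348 bp). For scores of 3.81 to 5.17, with 22 supported peaks, they had the larger one (480.5 against 386 bp). These medians by class have no test. By gap, the supported share was 8.82% (7.79 to 9.95) at 200 bp or less, 12.5% (11.3 to 13.8) from there to 1000 bp and 13.2% (11.7 to 14.9) to 5000 bp. It was 10.4% (8.34 to 12.8) to 20000 bp and 7.69% (4.54 to 12.03) beyond.

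**Figure D5:**
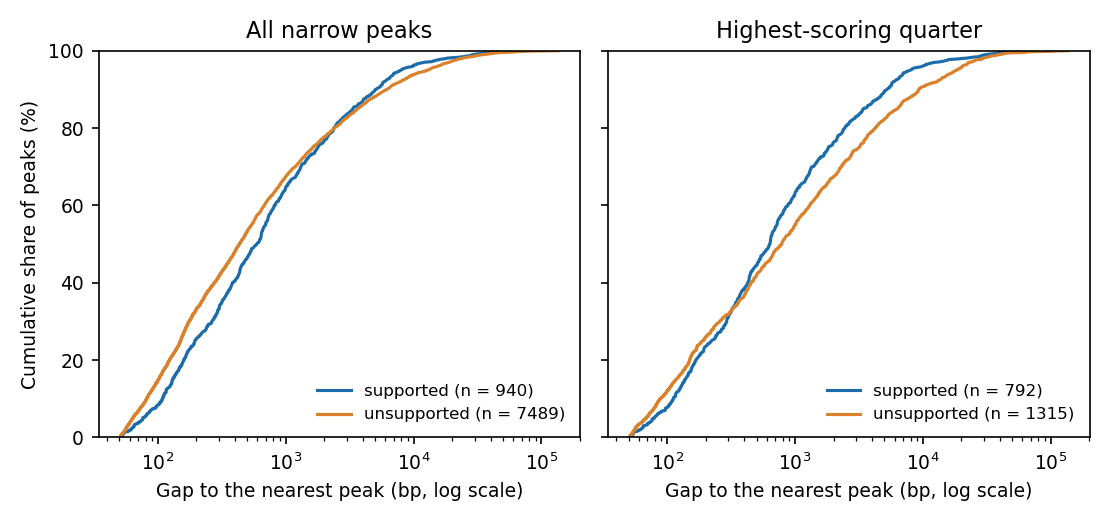
Cumulative percent of narrow peaks (y axis) with a gap to the nearest peak up to the value on the x axis (bp, log scale), for all narrow peaks (left panel) and for the highest-scoring 25% (right panel). Over all narrow peaks the supported curve lies to the right at short gaps (medians 592.5 and 433 bp), while among the highest-scoring it lies to the left at longer gaps (medians 635 and 789 bp).

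Supported peaks tended to neighbour one another on the autosomes. The nearest peak was itself narrow for 566 supported peaks, and for 111 of those (19.6%) it was also supported. For the 4619 unsupported narrow peaks with a narrow nearest neighbour that share was 9.27%. It was higher for supported peaks on each autosome, with 25.2% against 10.7% on II, 24.2% against 8.58% on IV and 22.6% against 9.72% on III. On X none of 17 supported peaks had a supported narrow neighbour, against 5.74% of 366. No test is given, because support on both sides comes from the same rule and the sections differ in their shares. Most supported peaks still stood without another beside them: 733 were in no run with another, and 70 pairs, 14 runs of 3, 5 runs of 4 and 1 run of 5 followed one another with no other peak between. The run of 5 lay on the left arm of III at 2883566 to 2893129.

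The supported peaks were unevenly spread, as narrow peaks in general were. Of 103 bins of 1 Mb, the 10 with the most supported peaks held 333 of them (35.4%) and 1760 of all narrow peaks (20.9%). These bins were picked for their supported peaks, so the comparison has no test. The median bin held 5 supported peaks, and 7 bins held none, 5 of them among the 18 bins of X. The bins from 2000001 to 3000000 on III and from 19000001 to 20000000 on V had 44 each, out of 196 and 180 narrow peaks. Both lie on pairing-centre arms, which only restates the arm shares above, since bins and arms were both picked from the same supported peaks.

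No difference in nearness to broad peaks passed the test. A broad peak of 2 kb or more lay within 10 kb of 19.5% of the supported and 20.5% of the unsupported narrow peaks. By chromosome the difference was -1.28 ± 3.10 percentage points (SD over 6 chromosomes), lower for supported peaks on I, II, III and IV and higher on V and X. By exact sign-flip permutation p was 0.469, also after adjustment. With support required in replicate 1 alone the difference was 3.43 points, and in replicate 2 alone -6.83 points. Chromosome II had the widest difference, 13.9% against 20.3%. Over all distances the median gap to a broad peak was 37721 bp for supported and 47282 bp for unsupported peaks. These medians and the shares that follow pool all sections, and place was not matched. Of the narrow peaks beyond 100000 bp from a broad peak 66.6% lay on arms, and of those between 10000 and 20000 bp 94.7%. The supported share ran from 9.49% (8.38 to 10.7) beyond 100000 bp to 13.2% (11.1 to 15.5) between 10000 and 20000 bp, and was 10.8% (7.98 to 14.2) at 1000 bp or less. The nearest peak of any kind was broad for 3.40% of supported and 3.55% of unsupported peaks.

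Named below are the highest-scoring supported peak of each chromosome, the 5 highest overall and the 3 most isolated, in WS220 coordinates. Genes and sequences at these positions were not analysed here. The highest of all lay in the centre of I at 8816355 to 8816692, with a whole-series score of 118.84, 55.2 in replicate 1 and 103.3 in replicate 2. It was 7911 bp from any other peak and 562393 bp from a broad one. The second, on the right arm of III at 13643513 to 13643814, scored 101.0 in the whole series, 18.2 in replicate 1 and 80.5 in replicate 2. These strongest narrow sites thus include one far from any broad region.

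The next highest, on the left arm of III at 1425442 to 1425778, scored 90.8, with 51.7 and 65.3 in replicates 1 and 2, and lay 534 bp from a broad peak. A peak in the centre of III at 5678954 to 5679229 scored 83.2, with 33.0 and 55.3, and was 158107 bp from a broad peak. The fifth, on the right arm of I at 13889158 to 13889535, scored 74.2, with 4.60 in replicate 1 and 81.3 in replicate 2. In replicate 1 that site stood only at percentile 29.3, although its midpoints were 1 bp apart, so agreement in place did not bring agreement in rank.

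The highest supported peak of II lay on the left arm at 1382571 to 1382952, with a score of 72.8, and scored 65.0 in replicate 1 and 36.6 in replicate 2. That of V lay on the right arm at 19117837 to 19118207, with 70.1, and scored 12.1 in replicate 1 and 77.2 in replicate 2. On IV it lay on the left arm at 4276705 to 4277045, with 60.0, and scored 26.6 and 38.5. On X it lay at 5841190 to 5841410, close to the inner end of the left arm at 5906288, with 54.9, and scored 10.5 and 55.1. It was 1510907 bp from the nearest broad peak. By percentile within each list, 5 of these 6 peaks ranked higher in replicate 2; the peak on II stood at 97.1 in replicate 1 and 90.7 in replicate 2. They were picked by whole-series score, which followed replicate 2 more closely. Over all 940 supported peaks 500 ranked higher in replicate 1 and 440 in replicate 2.

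The most isolated supported peaks were all in centres. On X a peak at 7595527 to 7595754 lay 64150 bp from any other, with scores of 18.6 in the whole series, 9.43 in replicate 1 and 11.4 in replicate 2. The peak at 11093939 to 11094255 on X lay 58544 bp from any other, with 16.6, 9.25 and 8.02. On I the peak at 7413188 to 7413359 lay 43915 bp from any other, with 8.81, 5.59 and 4.56. Their percentiles in replicates 1 and 2 were 64.5 and 66.4 for the first, 64.2 and 54.8 for the second, and 40.2 and 24.1 for the peak on I. The midpoints differed by 5.5, 31.5 and 21.5 bp, so these 3 sites were of middling or low rank but closely placed.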

How the data were processed

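Reads were aligned with BWA to ce10, per the submitters' processing notes, and peaks were called with MACS on WormBase WS220, per the file headers. Versions, threshold and control were not stated. The authors deposited 3 peak lists, 1 for each ChIP library and 1 for the whole series, with start, end and a score of unstated meaning for each peak. No source used here says how the list for the series was built. Depth is unknown.

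Chromosomes were taken to end at the last peak of the 3 lists, and peaks were placed by midpoint. The 3 chromosome-level contrasts were tested by exact two-sided sign-flip permutation over 6 chromosomes (64 patterns) with Benjamini-Hochberg adjustment. The overlap and gap code was tested on simulated lists. Python 3.11.15, numpy 2.4.6, pandas 2.3.3 and scipy 1.17.1 were used. Peaks were named by rule: the highest-scoring on each chromosome, the 5 highest and the 3 largest gaps. Bins, runs and pairing-centre arms were chosen after seeing values. Members, contrasts and rules were chosen with earlier results of these data known. Alternatives varied the overlap, width, score, replicates, sections and distances. Peaks were not assigned to genes, since the gene table at hand is of another build.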

Additional observations from a re-analysis of the deposited data

How the results depend on the processing

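Calls here refer to unadjusted p-values. The number of supported peaks (940) was 473 at 70% reciprocal overlap and 535 at 300 bp or less, and ran from 1949 to 4831 with a replicate left out. The mean arm-minus-centre difference stayed positive in 9 of 9 alternatives, but in the highest-scoring 25% (4.45 points) it was positive on only 3 of 6 chromosomes. It passed 0.05 with arms as the outer 25% (3.30 points) and without replicate 1 (6.13), and was 3.10 without replicate 2. The median gap difference (305.3 bp) no longer passed at 1 bp overlap (138.7), 70% overlap (82.5), 300 bp (211.7), 500 bp (184.8), in the higher-scoring 50% (93.6), on arms only (281.7), to the nearest narrow peak (295.3), and as the share with no peak within 5 kb (1.26 points, positive on X alone). It was 1987.5 in centres only, where X had 6 supported peaks, still passing. It also passed, at 297.1, against unsupported peaks with no 1 bp overlap in at least 1 replicate. It turned to -242.1 in the highest-scoring 25% and ran from -5 to 367.8 with a replicate left out. The broad-peak difference (-1.28 points) turned positive at 1 bp overlap (0.537), 70% overlap (2.00), in the higher-scoring 50% (1.46) and 25% (3.31), within 20 kb (1.82) and with broad peaks of 1 kb or more (3.69), and ran from -6.83 to 3.43 with a replicate left out; it passed 0.05 in none. The share supported on X (4.47%) was 1.55% at 70% overlap, 8.54% and 16.9% in the higher-scoring 50% and 25%, and ran from 14.1% to 60.7% with a replicate left out. The pairing-centre difference (7.35 points) turned to -3.53 without replicate 1 and was 10.4 without replicate 2. The cause of these changes was not tested. After seeing the data, the highest-scoring 25% and all values for X and for pairing-centre arms under other settings were added. No paired analysis was possible because the replicate numbers link ChIP to input, and no input file was analysed here. Unknown depth limits any reading of differences between the replicates.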
